A study of Mus musculus with 6 samples.

Results

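The genes described here are 58 cell cycle genes: 29 genes of DNA replication and 29 genes of mitosis. They were read on 6 whole-transcript arrays of mouse bone marrow cells in the Lin-c-Kit+Sca-1+ gate, which holds blood stem and early progenitor cells. The members were given by name, and each was read on the probe sets whose only gene symbol in the platform annotation is that name. All 29 replication genes and 28 of the 29 mitosis genes were measured, 57 genes on 59 probe sets out of 19934 genes tested. Ccnb1, the gene of cyclin B1, had no such probe set here.

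The cells came from a retroviral transplantation model of chronic myeloid leukaemia. Per the labels, marrow of donors treated beforehand with fluorouracil was transduced with a retrovirus and transplanted into B6 recipients, and cells of this gate that carried GFP were collected by sorting after 14 days. HSC denotes cells without BCR-ABL from wild-type C57BL/6 (B6) donors, whose label descriptions begin with "Vector". LSC denotes wild-type B6 cells that carried the BCR-ABL fusion kinase with GFP. Alox5-/- LSC denotes cells with the same construct from donors that lacked Alox5, the gene of arachidonate 5-lipoxygenase. The labels give an age of 8 weeks in all groups. Each group has 2 arrays, numbered as biological replicates, and the number of animals behind an array is not given in the sources used here. The p-values therefore weigh a difference against the spread between these samples, pooled over the groups and moderated across all genes. Group means are given with the SD over n = 2.

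A dividing cell copies its DNA in S phase and separates the copies in mitosis, and many genes of each step are switched on only while the step is under way. Replication genes are driven mainly by E2F transcription factors at the entry into S phase. Mitosis genes are held back in resting cells by the DREAM complex, which binds the CHR element of their promoters, and are activated late in the cycle. Blood stem cells of adult marrow are mostly at rest, while BCR-ABL is known to drive progenitor cells to divide. The comparisons ask how these genes stood in BCR-ABL cells and in BCR-ABL cells without Alox5.

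The promoters of the members differ by stage, a property that the choice of members did not use. RefSeq promoter windows of 300 bases (250 before and 50 after each start, assembly GRCm38.p6) were found for 49 members, as 53 windows. Both strands were searched. The E2F core was taken as TTCCCGC or any of its variants TTGGCGC and also TTCGCGC and also TTGCCGC. An E2F core stood in 19 of 28 windows of replication genes (67.9%), in 3 of 25 windows of mitosis genes (12%) and in 9.57% of all 32851 promoter windows. A CHR element, searched as TTTGAA and also as TTCGAA, stood in 7 of 28 windows of replication genes (25%), in 19 of 25 of mitosis genes (76.0%) and in 19.2% of all windows. A CCAAT box (CCAAT) was found in 67.9% of replication and 80.0% of mitosis windows, against 37.4% of all. A GC box (GGGCGG), whose matches can share bases with an E2F core, was found in 75.0% and 84.0%, against 35.7%. A match is a description of these letters and does not show that a factor binds there.

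**Figure D1:**
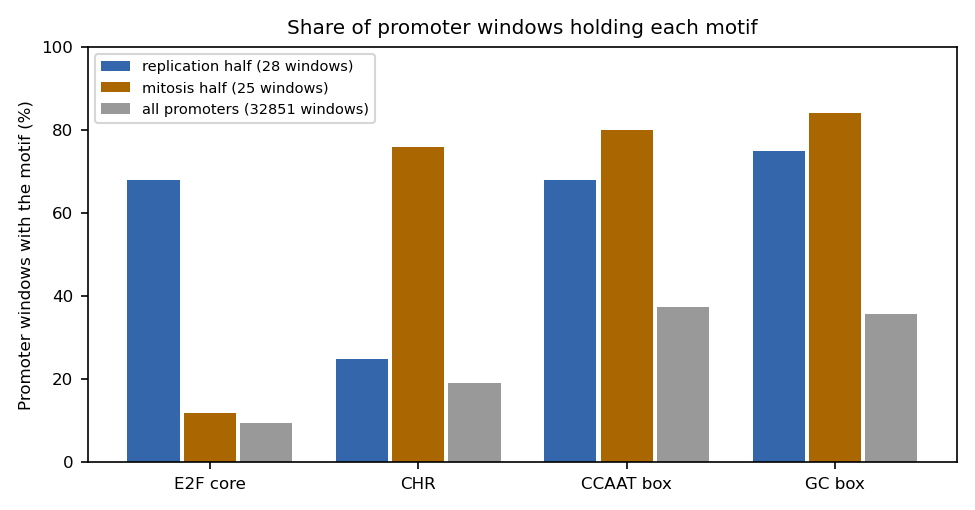
Share of promoter windows (y axis, percent) that hold each of 4 motifs (x axis), for 28 windows of replication genes, 25 windows of mitosis genes and all 32851 windows. The E2F core stands in 67.9% of replication and 12% of mitosis windows, and the CHR element in 25% and 76.0%.

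The stretches below show 5 members that the later results return to, from 150 bases before to 30 bases after the start. Capitals mark an E2F core or a CHR element. Prim1 and Rfc3 carry E2F cores, Cdca8 and Prc1 a CHR element, and Mcm2 is a replication gene with a CHR element and no E2F core in the window. The sequences are RefSeq GRCm38.p6, given 5′ to 3′ on the strand of the gene. They lie at chr10:128015065-128015244 (+ strand) for Prim1, chr5:151651179-151651358 (- strand) for Rfc3, chr6:88898751-88898930 (- strand) for Mcm2, chr4:124936888-124937067 (- strand) for Cdca8 and chr7:80294301-80294480 (+ strand) for Prc1, of which the table lists another start nearby.
Prim1: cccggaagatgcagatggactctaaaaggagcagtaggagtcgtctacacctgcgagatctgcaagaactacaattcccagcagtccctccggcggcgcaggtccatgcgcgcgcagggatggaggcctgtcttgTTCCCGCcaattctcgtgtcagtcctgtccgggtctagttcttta
Rfc3: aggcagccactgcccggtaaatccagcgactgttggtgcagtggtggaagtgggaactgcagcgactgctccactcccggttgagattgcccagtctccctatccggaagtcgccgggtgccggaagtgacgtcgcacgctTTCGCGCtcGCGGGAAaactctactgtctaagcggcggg
Mcm2: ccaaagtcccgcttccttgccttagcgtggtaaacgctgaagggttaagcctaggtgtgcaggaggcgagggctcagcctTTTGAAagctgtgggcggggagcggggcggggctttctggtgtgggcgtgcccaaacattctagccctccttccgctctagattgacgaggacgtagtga
Cdca8: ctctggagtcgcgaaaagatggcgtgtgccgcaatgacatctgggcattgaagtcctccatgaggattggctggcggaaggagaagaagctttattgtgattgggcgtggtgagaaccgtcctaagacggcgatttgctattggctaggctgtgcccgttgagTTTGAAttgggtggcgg
Prc1: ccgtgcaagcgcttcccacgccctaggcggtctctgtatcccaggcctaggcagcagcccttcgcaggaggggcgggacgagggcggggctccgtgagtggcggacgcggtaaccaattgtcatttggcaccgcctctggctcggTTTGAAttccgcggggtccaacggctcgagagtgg

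The deposited values are 1 score per probe set and array, with no stated unit. Their range was 0 to 62.1, and the share of scores above 16 was 33.5% to 53.7% by array, while log2 of a 16-bit scan cannot exceed 16. Array medians ran from 14.46 to 16.37, so each array was centred on its own median. All values below are centred scores (deposited score minus array median), in the order replicate 1 and replicate 2, unless called deposited. The direction of the scale could not be settled. For 1193 olfactory and vomeronasal receptor genes, which are not blood genes, array medians of the deposited score were 15.26 to 16.94. For 180 genes of ribosomal proteins, the proteasome, translation initiation and splicing they were 15.18 to 17.91. Over the single probe sets of these lists (1207 and 326) the ranges were 15.25 to 16.91 and 12.15 to 14.77. By gene, the genes that every cell uses had the higher median on 3 of the 6 arrays, and over single probe sets they had the lower one on all 6. A higher score is therefore not read as more RNA, and no fold change is given. The bulk samples also cannot tell a different share of cycling cells from a different level per cell.

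The targeted gene and the gate were read first. Alox5 was -2.94 and 3.52 in HSC, -2.26 and -1.30 in LSC, and -1.30 and -0.92 in Alox5-/- LSC. Alox5-/- LSC minus LSC was 0.67 ± 1.99 (SE), so the genotype label was not checked by this probe set. Kit, a marker of the gate, was -2.94 and -0.96 in HSC, -4.32 and -0.99 in LSC, and -4.20 and -3.92 in Alox5-/- LSC. It lay below the median of every array, although the cells were sorted as c-Kit+, so the gate was not checked by it. Its difference between LSC and HSC was -0.70 ± 1.38. Ly6a, the gene of Sca-1, had no probe set with a single symbol here. Markers of B, T and NK, monocyte, neutrophil, erythroid, megakaryocyte and mast cells gave 60 measured genes, of which 0 had a deposited score under 1 on any array. The summed deposited scores of B cell markers (9 of 10 measured) were 131.8 to 140.2 in HSC, 124.0 to 129.8 in LSC and 118.9 to 130.1 in Alox5-/- LSC. Those of neutrophil markers (12 of 12) were 171.0 to 184.9, 168.4 to 168.6 and 148.2 to 172.2, and those of mast cell and basophil markers (8 of 8) 142.3 to 143.4, 126.8 on both arrays, and 117.3 to 144.2. For these 3 lists the summed deposited scores were lower on the LSC than on the HSC arrays, and those of the other 4 lists overlapped. The median centred scores of the same 3 lists overlapped between LSC and HSC, and their genes went both ways, as with Cd79a (-10.12 ± 1.77) and Vpreb3 (8.87 ± 1.22) of the B cell list. At an unadjusted p under 0.05, 11 of the 60 markers (18.3%) differed between LSC and HSC, against 5.14% of all genes. In Alox5-/- LSC minus LSC there were 7 (11.7%, against 3.99%), and in Alox5-/- LSC minus HSC 6 of 60, against 5.91%. Their part in the results below was not tested.

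By array medians, the replication genes were lowest in LSC and the mitosis genes highest in HSC, with no test made of a median. The median centred score of the replication genes was 0.37 and 0.19 in HSC, -1.24 and -0.10 in LSC, and 0.40 and 0.06 in Alox5-/- LSC. Both LSC arrays lay below the 4 others, and the LSC arrays differed from each other by more than HSC differed from Alox5-/- LSC. The median of the mitosis genes was 1.30 and 0.59, then -0.55 and 0.38, then 0.29 and -0.68. Here the HSC arrays lay above all the others, and LSC overlapped with Alox5-/- LSC. The pooled SD of such a median between replicates was 0.49 for replication and 0.62 for mitosis genes. The medians of all genes tested were 0.59 to 0.83 on the 6 arrays.

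**Figure D2:**
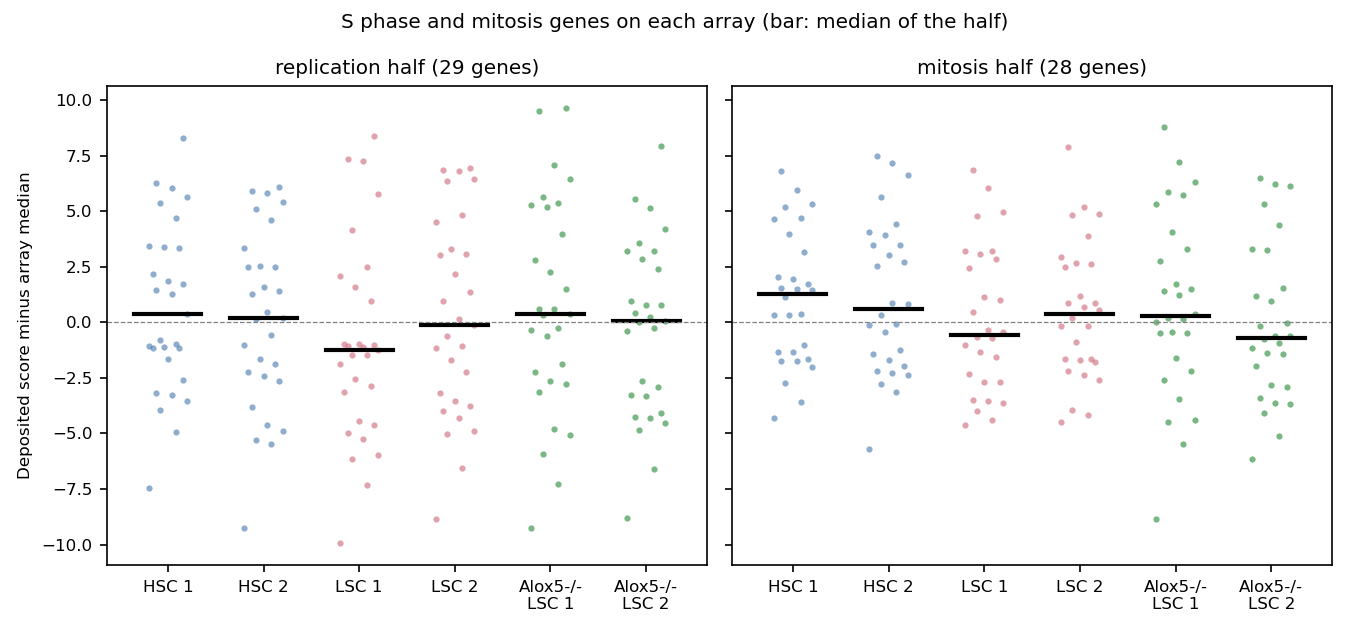
Centred score (y axis, deposited score minus array median) of 29 replication genes and 28 mitosis genes on each array (x axis, 2 arrays per group). Each point is a gene and each bar the median, which for replication genes was lowest on LSC replicate 1 at -1.24, while the genes of 1 array spread over far more than the medians.

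Single genes varied more than the medians. The range over the 6 arrays was 1.72 for Nuf2, a kinetochore protein, and 14.96 for Top2a, the topoisomerase that untangles sister chromosomes, with a median of 4.38 over the 57 members and 3.66 over all genes. Much of it lay between replicates. The median gap between the replicates of a group was 1.72 in HSC, 1.1 in LSC and 1.67 in Alox5-/- LSC for the members, against 1.41, 1.29 and 1.44 for all genes. On Alox5-/- LSC replicate 1, 21 of 57 members had their highest score, and 40 of 57 were higher there than on replicate 2, as were 9909 of all 19934 genes. On LSC replicate 1, 19 of 57 had their lowest score. Highest and lowest arrays were not counted over all genes, so these 2 counts may not be particular to the members.

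LSC against HSC asked what BCR-ABL changed. No member and none of the 19934 genes had an adjusted limma p under 0.05, a count of 0. At an unadjusted p under 0.05, 6 of 57 members (10.5%) had lower scores in LSC and 0 had higher ones, where 3.12% of all genes were lower, 2.02% higher and 5.14% either. They were Mcm2, Prim1 and Rfc3 of replication and Ccna2, Aurka and Cdca8 of mitosis. The LSC arrays lay wholly below the HSC arrays for 17 members (29.8%) and wholly above for 5 (8.77%), where 17.2% and 17.5% of all genes did so, 34.7% in all. Differences were below 0 for 20 of 29 replication and 19 of 28 mitosis genes, and for 49.8% of all genes. The median difference was -0.74 over the replication genes and -0.57 over the mitosis genes, and 0.01 over all genes. LSC had the lowest mean of the 3 groups for 16 of 29 replication genes (55.2%) and 11 of 28 mitosis genes (39.3%). For all genes this share was 33.4%. For mitosis genes Alox5-/- LSC had the lowest mean more often, in 12 of 28 (42.9%), against 30.4% of all genes. Of the genes with an unadjusted p under 0.05 among all tested, 60.7% were lower after centring and 79.4% on the deposited scores, whose median difference over all genes was -0.47. How one-sided the differences were depended on the array left out. Differences were below 0 for 39 of 57 members on all arrays, for 35 without HSC replicate 1 and for 31 without LSC replicate 1. They were below 0 for 40 members without HSC replicate 2, and for 40 without LSC replicate 2. Gins1 differed by 4.77 without HSC replicate 1 and by -3.02 without HSC replicate 2. Gins3 differed by 4.47 without LSC replicate 1 and by -0.77 without LSC replicate 2. The replication median was -0.15 when LSC replicate 1 was left out and -1.27 when LSC replicate 2 was.

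**Figure D3:**
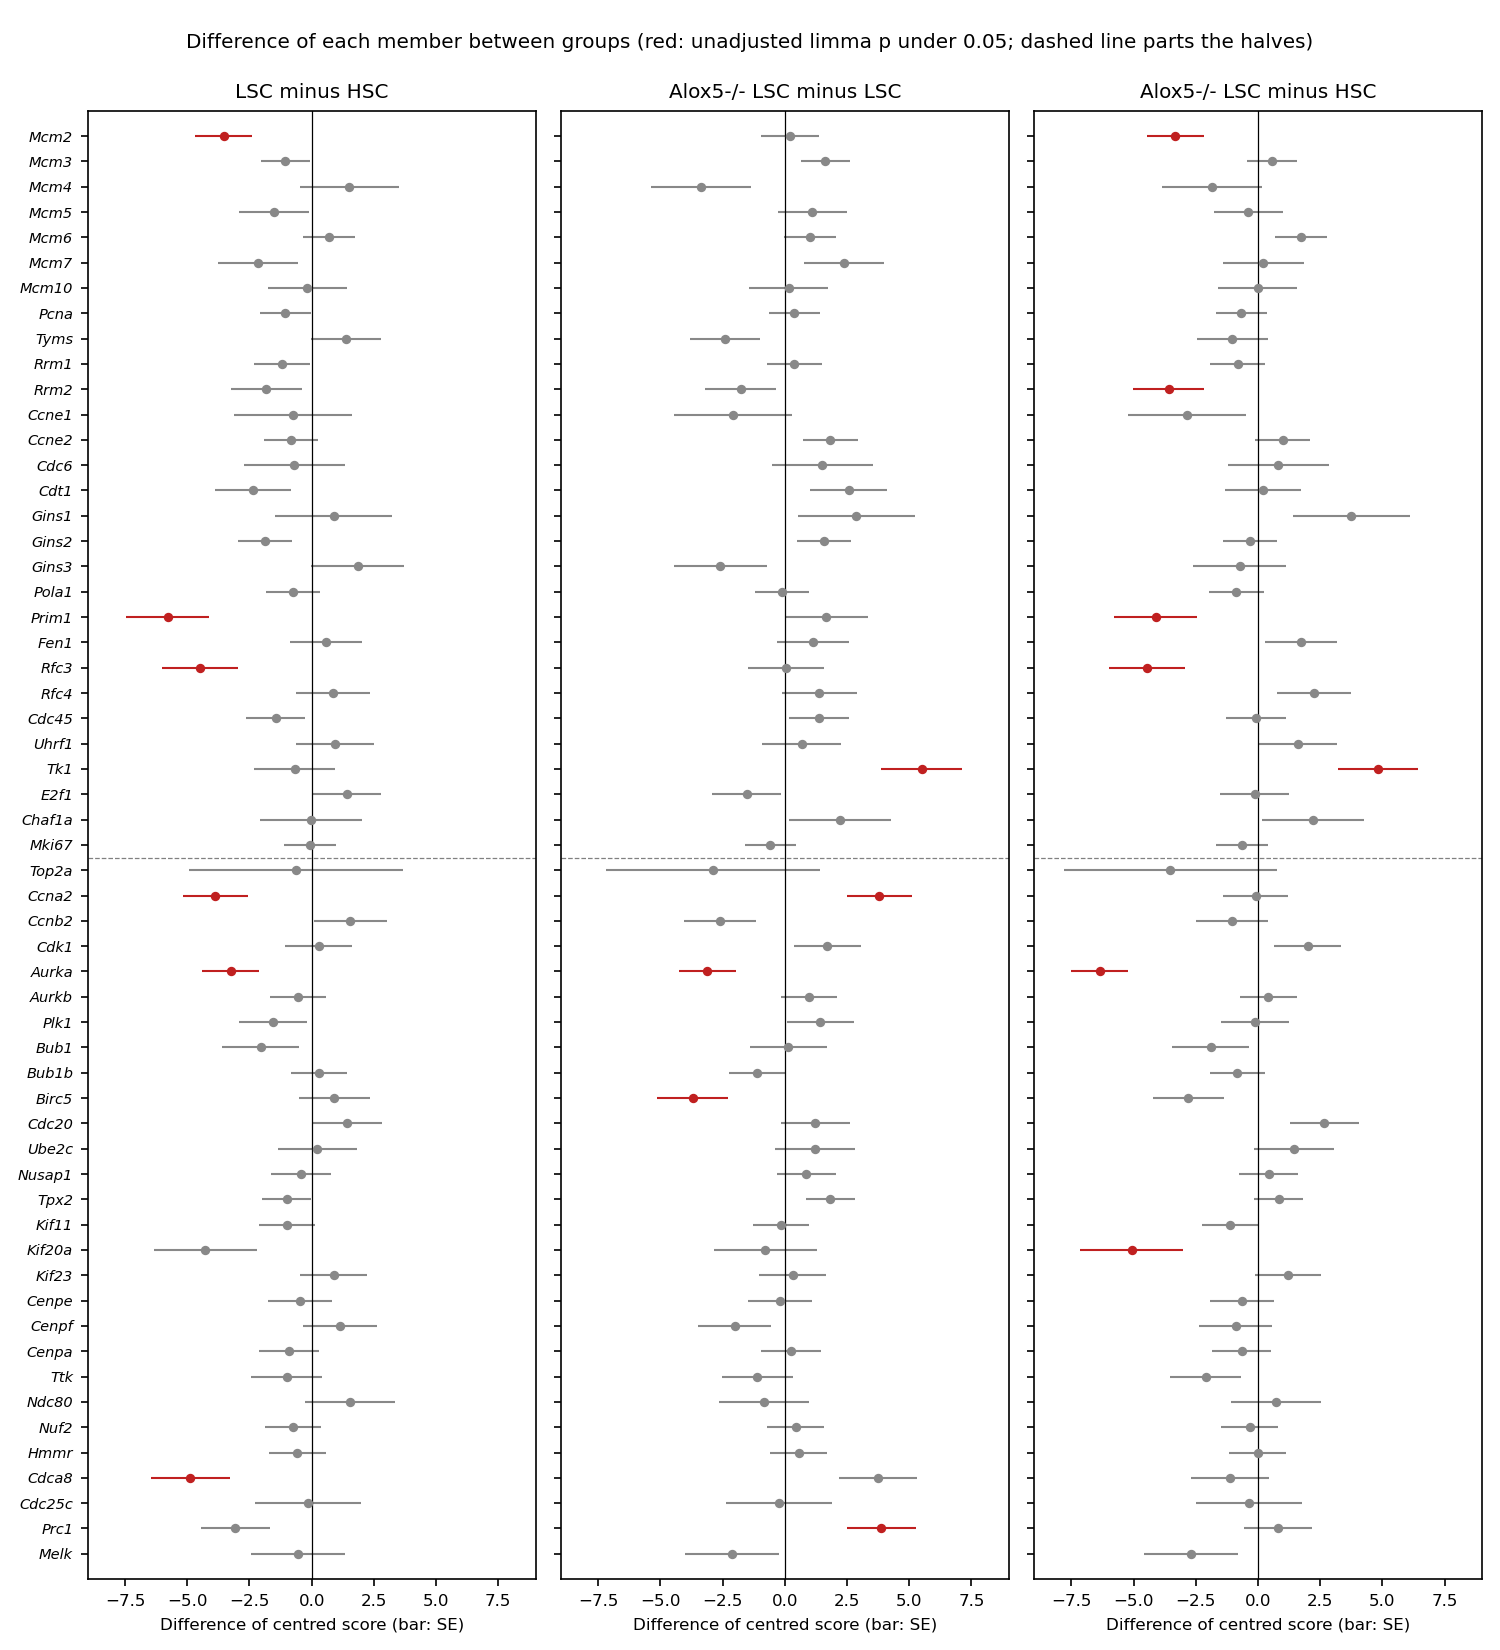
Difference of centred scores (x axis, with SE) of each of the 57 measured members (y axis, replication genes above the dashed line) in the 3 comparisons. Members with an unadjusted limma p under 0.05 are red, and these number 6, 5 and 7 from left to right. None passed after adjustment over all genes.

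The MCM helicase, the ring of subunits that unwinds DNA at the fork, showed no common direction. Mcm2 stood at -3.27 and -2.22 in HSC, -5.99 and -6.55 in LSC, and -7.29 and -4.83 in Alox5-/- LSC. Every BCR-ABL array was below both HSC arrays. LSC minus HSC was -3.53 ± 1.15 (SE; limma adjusted p = 0.944), and Alox5-/- LSC minus HSC was -3.32 ± 1.15 (adjusted p = 0.817).

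The other subunits did not repeat the pattern of Mcm2. Mcm3 was -1.05 and -0.55, then -1.47 and -2.25, then -0.24 on both Alox5-/- LSC arrays. Its LSC arrays were the lowest, and its difference from HSC was -1.06 ± 0.99. Mcm7 (-1.17 and 2.5, -2.88 and -0.10, 1.52 and 0.23) and Mcm5 (1.28 and 0.14, -2.53 and 0.95, 0.61 and 0.02) overlapped between HSC and LSC. Mcm6 was -4.92 and -5.46, then -4.96 and -4.01, then -2.63 and -4.30, so that the Alox5-/- LSC arrays were above the HSC arrays. Mcm4 rested on LSC replicate 2: it was -0.78 and 1.26, then -1.03 and 4.54, then -0.32 and -2.90. Over the 6 subunits the median of LSC minus HSC was -1.28, with 4 below 0.

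The genes that load and fire the helicase had a median LSC minus HSC of -0.69, and 0 of 7 had p under 0.05. They are Cdc6 and Cdt1, which load it at origins, Mcm10, which activates it, and Cdc45, Gins1, Gins2 and Gins3, which travel with it. Cdt1 was 3.43 and 3.37 in HSC, -0.98 and 3.04 in LSC, and 3.97 and 3.22 in Alox5-/- LSC, so that only LSC replicate 1 stood apart. Gins1 rested on HSC replicate 2, with 5.36 and -2.42 in HSC, 2.5 and 2.2 in LSC, and 5.30 and 5.13 in Alox5-/- LSC. Gins3 had the largest positive LSC minus HSC of the replication genes, 1.85 ± 1.87, from 6.84 on LSC replicate 2 against 1.60 on replicate 1, with 3.33 and 1.42 in HSC and 2.29 and 0.97 in Alox5-/- LSC. Cdc6, Mcm10, Gins2 and Cdc45 differed by -0.69, -0.17, -1.87 and -1.45, and for Gins2 and Cdc45 the LSC arrays lay below the HSC arrays.

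Among the proteins of the fork, primase and a clamp loader subunit had lower scores on every BCR-ABL array than on both HSC arrays. Prim1, which lays the RNA primers, was -1.11 and 0.48 in HSC, -7.31 and -4.89 in LSC, and -2.24 and -6.62 in Alox5-/- LSC. Its LSC minus HSC of -5.78 ± 1.67 (limma adjusted p = 0.944) was the largest of the replication genes. Rfc3, which helps to load the sliding clamp, was -1.66 and 2.51, then -4.62 and -3.52, then -4.80 and -3.27.

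For Rfc3 the LSC difference from HSC was -4.50 ± 1.53 (limma adjusted p = 0.944), and -2.41 without HSC replicate 2. Rfc4, another subunit of the same loader, was 0.37 and -3.82, -1.11 and -0.61, and 0.62 and 0.44, and overlapped between HSC and LSC. Pcna, the clamp itself, was -7.46 and -9.24, -9.94 and -8.87, and -9.24 and -8.80, and overlapped in all groups. Pola1, the catalytic subunit of polymerase alpha, differed by -0.75 ± 1.1. Fen1, the flap nuclease, Chaf1a, a histone chaperone, and Uhrf1, which carries DNA methylation to the new strand, differed by 0.58, -0.02 and 0.93. The value for Chaf1a changed sign after quantile normalization, to 0.02.

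Nucleotide synthesis and S phase entry gave 0 of 7 genes at p under 0.05 between LSC and HSC. Rrm2, the regulated subunit of ribonucleotide reductase, was 5.66 and 5.44 in HSC, 4.15 and 3.31 in LSC, and 0.35 and 3.57 in Alox5-/- LSC. Its 4 BCR-ABL arrays were below both HSC arrays, with differences of -1.82 ± 1.42 for LSC and -3.59 ± 1.42 for Alox5-/- LSC (limma adjusted p = 0.820). Rrm1, the other subunit, differed by -1.19 and -0.82. Tyms, thymidylate synthase, was higher in LSC by 1.37 ± 1.41 with no overlap. Cyclin E genes Ccne1 and Ccne2 differed by -0.74 and -0.83, and E2f1 by 1.41. Ccne1 had a gap of 8.00 between the HSC replicates, the largest of the replication genes. Mki67, the gene of the proliferation antigen Ki-67, was -3.17 and -4.89 in HSC, -4.42 and -3.77 in LSC, and -5.07 and -4.27 in Alox5-/- LSC, and its LSC minus HSC was -0.07 ± 1.04.

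Of the mitotic cyclins and kinases, Ccna2 and Aurka had lower scores in LSC. Ccna2, cyclin A, which acts in S phase and at the entry into mitosis, was 5.34 and 3.47 in HSC, 0.48 and 0.56 in LSC, and 3.30 and 5.34 in Alox5-/- LSC. Only the LSC arrays were low, with a difference of -3.88 ± 1.31 from HSC (limma adjusted p = 0.944).

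Aurka, the Aurora kinase of the spindle poles, lay in 3 steps without overlap: 1.45 and 2.73 in HSC, -0.67 and -1.65 in LSC, and -3.45 and -5.10 in Alox5-/- LSC. LSC minus HSC was -3.25 ± 1.14 (limma adjusted p = 0.944) and Alox5-/- LSC minus HSC -6.36 ± 1.14 (adjusted p = 0.789). The latter had the smallest p of any member in any comparison and kept an unadjusted p under 0.05 in all 14 alternatives that measured it.

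The other genes of this class differed less between LSC and HSC. Cdk1, the kinase that cyclins A and B activate, was 5.96 and 3.5, 4.80 and 5.21, and 7.22 and 6.22, and overlapped between HSC and LSC. Ccnb2, a cyclin B, was -1.75 and -5.70, -2.70 and -1.66, and -5.46 and -4.10. Plk1, Cdc25c and Melk differed between LSC and HSC by -1.54, -0.15 and -0.56. Ccnb2 had the largest positive difference of the mitosis genes, 1.55 ± 1.46, within the spread of its HSC replicates.

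The chromosomal passenger complex, which corrects faulty attachments, showed no common direction between LSC and HSC. Cdca8, its borealin subunit, was 3.19 and -0.41 in HSC, -4.62 and -2.35 in LSC, and 1.25 and -0.74 in Alox5-/- LSC. LSC was the low group, with a difference of -4.87 ± 1.58 (limma adjusted p = 0.944), and of -3.07 without HSC replicate 1. Aurkb, its kinase, differed by -0.56 ± 1.13, and Birc5, survivin, was 4.64 and 4.45, then 6.03 and 4.89, a difference of 0.91 ± 1.42 without overlap.

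Checkpoint, centromere and spindle genes gave 0 of 17 members at p under 0.05 between LSC and HSC. Kif20a, a kinesin of the midzone, came nearest in size, at 6.82 and 7.50 in HSC, 3.23 and 2.51 in LSC, and 5.33 and -1.16 in Alox5-/- LSC. Its LSC minus HSC was -4.28 ± 2.07 (limma adjusted p = 0.965). Prc1, which bundles midzone microtubules, was -1.65 and 0.35, -3.49 and -3.96, and 1.72 and -1.42, with LSC the lowest group and a difference of -3.07 ± 1.38 (adjusted p = 0.965). Ndc80, which ties kinetochores to microtubules, was 0.33 and -3.13, -0.43 and 0.71, and 1.51 and -2.89, and overlapped in all groups. The other spindle genes Nusap1, Tpx2, Kif11, Kif23 and Hmmr differed by -0.43, -1.0, -0.98, 0.89 and -0.58, and Top2a by -0.63. Nuf2, the partner of Ndc80, differed by -0.75 and the centromere proteins Cenpa, Cenpe and Cenpf by -0.91, -0.46 and 1.14. Of the checkpoint genes, Bub1 differed by -2.04, Ttk by -1.0 and Bub1b by 0.29, and Cdc20 and Ube2c of the anaphase-promoting pathway by 1.44 and 0.23. On the deposited scores Bub1b and Ube2c differed by -0.19 and -0.24.

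**Figure D4:**
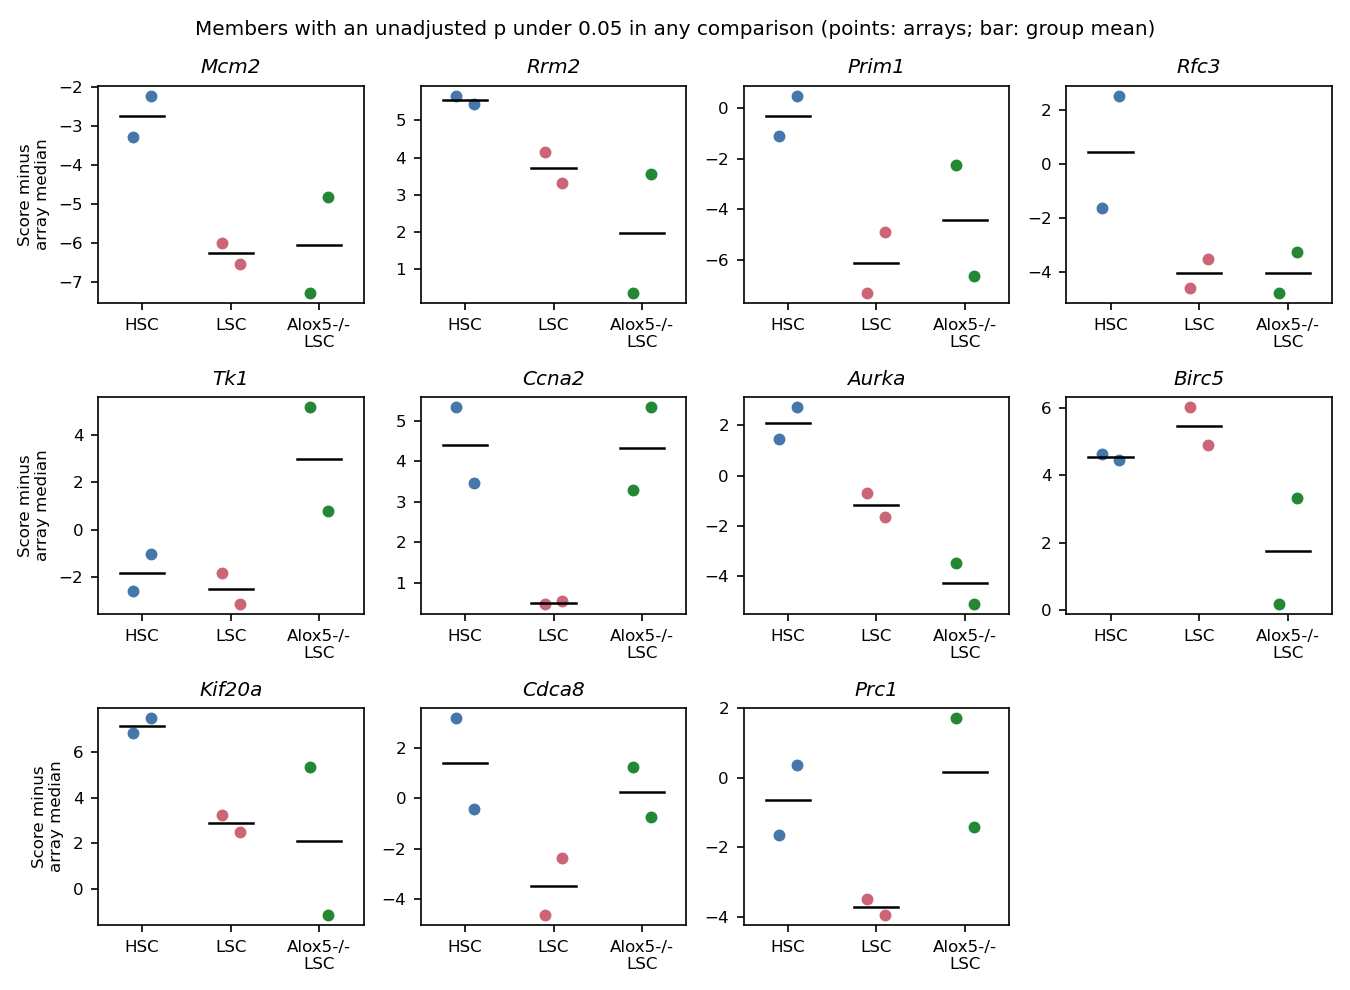
Centred score (y axis) on each array by group (x axis) of the 11 members with an unadjusted limma p under 0.05 in any comparison. Points are arrays, replicate 1 to the left, and bars are means of 2 arrays. For Ccna2, Cdca8 and Prc1 the LSC arrays are the lowest, for Mcm2, Prim1 and Rfc3 all BCR-ABL arrays are below HSC, and Aurka is highest in HSC and lowest in Alox5-/- LSC.

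Alox5-/- LSC against LSC asked what the loss of Alox5 altered in BCR-ABL cells. It shares the LSC arrays with the comparison above, so that a low score on an LSC array lowers the difference above and raises this one. The adjusted limma p was under 0.05 for 0 of 19934 genes and 1.00 for every member. At an unadjusted p under 0.05, 3 members were higher in Alox5-/- LSC (5.26%) and 2 lower (3.51%), where 2.0% and 1.99% of all genes were, 3.99% in all. The Alox5-/- LSC arrays lay wholly above the LSC arrays for 14 members (24.6%) and wholly below for 5 (8.77%), where 17.5% and 14.6% of all genes did so, 32.1% in all. Differences were below 0 for 8 of 29 replication and 13 of 28 mitosis genes, and for 46.6% of all genes. Of the 14 members wholly above, 9 were replication genes: Mcm3, Mcm7, Ccne2, Cdt1, Gins1, Gins2, Rfc4, Cdc45 and Tk1. The median difference was 1.02 over replication genes, 0.20 over mitosis genes and 0.11 over all genes. On the deposited scores the mitosis median was -0.21 and the median of all genes -0.30. Of all genes at p under 0.05, 49.8% were lower after centring and 76.1% on the deposited scores. Differences were below 0 for 21 of 57 members on all arrays, for 28 without LSC replicate 1 and for 19 without LSC replicate 2. They were below 0 for 28 without Alox5-/- LSC replicate 1 and for 21 without Alox5-/- LSC replicate 2. The replication median was 0.15 when LSC replicate 1 was left out and 0.28 when Alox5-/- LSC replicate 1 was, and the mitosis median was 1.35 without Alox5-/- LSC replicate 2.

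Tk1, the thymidine kinase of the salvage pathway, had the largest difference. It was -2.61 and -1.03 in HSC, -1.85 and -3.16 in LSC, and 5.20 and 0.80 in Alox5-/- LSC. The Alox5-/- LSC arrays were the highest, by 5.50 ± 1.62 against LSC (limma adjusted p = 1.00) and 4.82 ± 1.62 against HSC (adjusted p = 0.817). Without Alox5-/- LSC replicate 1 these were 3.30 and 2.62.

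The other probe set of Tk1 did not show this. It was -7.42 and -3.33 in HSC, -10.19 and -7.34 in LSC, and -7.25 and -8.60 in Alox5-/- LSC. Its Alox5-/- LSC minus LSC was 0.84, and its Alox5-/- LSC minus HSC was -2.55. Top2a was the only other member with more than 1 probe set that carried values. The one kept was 0.39 and 3.93 in HSC, 2.85 and 0.21 in LSC, and -8.84 and 6.12 in Alox5-/- LSC, so that replicates of 1 group were its highest and lowest arrays. The other Top2a probe set lay between -8.25 and -6.19 on all 6 arrays and differed by 0.47 between Alox5-/- LSC and LSC. Over the 754 genes with exactly 2 probe sets, the signs matched in 54.9% for this comparison and in 52.7% for each of the others. The differences of such probe sets correlated across genes at a Pearson r of 0.0796, and at 0.115 for LSC minus HSC and 0.108 for Alox5-/- LSC minus HSC. Genes are not independent replicates.

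**Figure D5:**
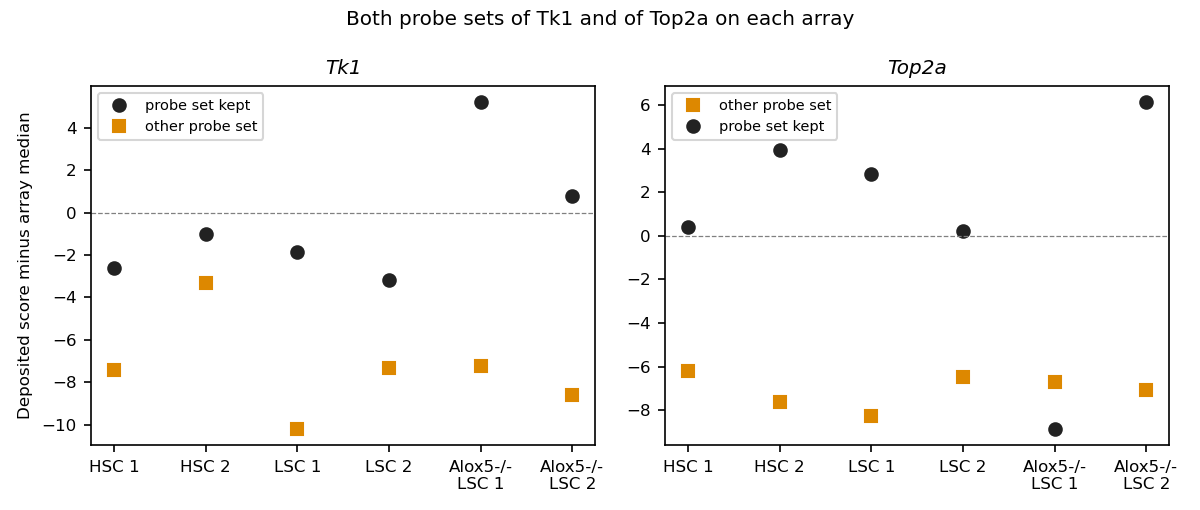
Centred score (y axis) of both probe sets of Tk1 and of Top2a on each array (x axis). The kept probe set of Tk1 is highest on the Alox5-/- LSC arrays, at 5.20 and 0.80, while its other probe set is at -7.25 and -8.60 there. The kept probe set of Top2a runs from -8.84 to 6.12 within the Alox5-/- LSC group.

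Among mitosis genes, Ccna2 and Prc1 were higher and Aurka and Birc5 lower in Alox5-/- LSC than in LSC. The differences were 3.80 ± 1.31 for Ccna2, 3.88 ± 1.38 for Prc1, -3.11 ± 1.14 for Aurka and -3.71 ± 1.42 for Birc5, each with an adjusted p of 1.00. In Alox5-/- LSC Birc5 was 0.18 and 3.32, below the 4 other arrays, and its difference was -2.14 without Alox5-/- LSC replicate 1. Prc1 was 2.31 without Alox5-/- LSC replicate 1. Cdca8 differed by 3.74 ± 1.58, with an unadjusted p just above 0.05. The Ccna2 means were 4.40 ± 1.32 in HSC, 0.52 ± 0.06 in LSC and 4.32 ± 1.44 in Alox5-/- LSC, so Alox5-/- LSC differed from HSC by -0.09 ± 1.31. For the MCM helicase, 5 of 6 subunits had differences above 0, and the exception was Mcm4 at -3.37 ± 1.99. Mcm2, at 0.21, was -0.20 on the deposited scores. Mcm7 differed by 2.37 ± 1.62 and Mcm3 by 1.62 ± 0.99. Gins1 differed by 2.87 ± 2.35 and Gins3 by -2.59 ± 1.87, so subunits of the same complex lay on opposite sides of 0. This rested on LSC replicate 2, without which Gins3 differed by 0.03.

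Alox5-/- LSC against HSC shares its arrays with both comparisons above. Here too 0 of 19934 genes had an adjusted limma p under 0.05. At an unadjusted p under 0.05, 1 member was higher in Alox5-/- LSC (1.75%) and 6 lower (10.5%), where 2.61% and 3.3% of all genes were, 5.91% in all. The higher one was Tk1, and the lower ones were Mcm2, Rrm2, Prim1, Rfc3, Aurka and Kif20a. Prim1 differed by -4.12 ± 1.67, Rfc3 by -4.46 ± 1.53 and Kif20a by -5.07 ± 2.07, with adjusted limma p of 0.825, 0.817 and 0.825. Kif20a rested on Alox5-/- LSC replicate 2, without which it differed by -1.83, as did Prim1, which then differed by -1.93. Without Alox5-/- LSC replicate 1, Rrm2 differed by -1.98 and Mcm2 by -2.09, and without HSC replicate 2 Rfc3 differed by -2.37.

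The Alox5-/- LSC arrays lay wholly below the HSC arrays for 11 members (19.3%) and wholly above for 8 (14.0%), where 15.9% and 19.0% of all genes did so, 34.9% in all. Differences were below 0 for 17 of 29 replication and 19 of 28 mitosis genes, and for 47.2% of all genes. The 8 members wholly above were Mcm3, Mcm6, Ccne2, Rfc4, Tk1, Cdk1, Cdc20 and Tpx2. On the deposited scores the differences of Mcm3 and Tpx2 changed sign, to -0.32 and -0.06. Cdk1 differed by 1.99 ± 1.34 and Cdc20 by 2.67 ± 1.39, the latter with 1.72 and 2.52 in HSC, 3.22 and 3.90 in LSC, and 6.31 and 3.26 in Alox5-/- LSC. The median difference was -0.13 over replication genes and -0.51 over mitosis genes, against 0.10 over all genes. On the deposited scores these medians were -1.01, -1.39 and -0.78. Of all genes at p under 0.05, 55.8% were lower after centring and 89.4% on the deposited scores. Differences were below 0 for 36 of 57 members on all arrays, for 27 without HSC replicate 1 and for 34 without HSC replicate 2. They were below 0 for 40 without Alox5-/- LSC replicate 1 and for 28 without Alox5-/- LSC replicate 2. The replication median was -0.83 without HSC replicate 2, and the mitosis median was 0.12 without Alox5-/- LSC replicate 2.

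Promoter classes had similar medians between LSC and HSC. In the comparisons with Alox5-/- LSC, members with an E2F core had the higher median, with no test made. E2F cores stood in 19 of 28 replication and 3 of 25 mitosis windows. This split therefore largely repeats the one into replication and mitosis genes and is not a separate result. For LSC minus HSC the median was -0.69 over the 19 measured members with an E2F core and -0.63 over the 29 without. For Alox5-/- LSC minus LSC it was 1.11 and 0.14, and for Alox5-/- LSC minus HSC 0.20 and -0.67. Members with a CHR element (25) and without (23) had medians of -0.63 and -0.68, 0.21 and 0.43, and -0.66 and -0.33. In the stretches printed above, Prim1 and Rfc3, with E2F cores, were low in LSC, and so were Mcm2 and Cdca8, which carry a CHR element and no E2F core there. Aurka, whose stretch is not printed, was also lower in LSC than in HSC. Its full promoter window holds a CHR element and no E2F core.

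Other genes of the same pathways had an unadjusted p under 0.05 about as often as all genes or less. Of 40 further replication genes measured, 2 had lower scores in LSC than in HSC at an unadjusted p under 0.05 and 0 higher, against 3.12% and 2.02% of all genes, 5.14% in all. They were Dscc1, which serves an alternative clamp loader (-5.47 ± 1.47), and the exonuclease Exo1 (-3.51 ± 1.35), with adjusted limma p of 0.944 and 0.947. Of 48 further mitosis genes, 2 were lower and 0 higher, Cenpn of the centromere (-4.20 ± 1.18) and Ccnf, cyclin F (-5.31 ± 2.01). LSC minus HSC was below 0 for 23 of the 40 and 33 of the 48, with medians of -0.73 and -0.74. Over all genes 49.8% were below 0 and the median was 0.01, so the lower scores were not particular to the members. In Alox5-/- LSC minus LSC these lists gave 1 of 40, the ligase Lig1 (-3.63 ± 1.23), and 0 of 48, against 3.99% of all genes. In Alox5-/- LSC minus HSC they gave 2 of 40, Dscc1 (-6.00 ± 1.47) and the uracil glycosylase Ung (3.4 ± 1.37), and 0 of 48, against 5.91% of all genes.

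Regulators upstream of S phase were read last. Of 23 genes of G1 cyclins, their kinases, E2F factors and pocket proteins, E2f5 was higher (4.18 ± 1.18) and E2f2 lower (-4.64 ± 1.49) in LSC than in HSC at an unadjusted p under 0.05, which is 2 of 23 against 5.14% of all genes. In Alox5-/- LSC minus LSC there were 4 of 23, against 3.99%. The D cyclins Ccnd1 (3.79 ± 1.31) and Ccnd3 (3.52 ± 1.32) were higher and E2f3 (-6.74 ± 1.91) and E2f5 (-3.13 ± 1.18) lower. Ccnd1 was -0.03 and 1.5 in HSC, 1.91 and 1.78 in LSC, and 6.82 and 4.45 in Alox5-/- LSC, so the Alox5-/- LSC arrays lay above all others, by 4.90 ± 1.31 against HSC. In Alox5-/- LSC minus HSC 2 of 23 had p under 0.05, against 5.91% of all genes. E2f3 was 5.46 and 4.46, 4.59 and 5.64, and -4.49 and 1.24, with Alox5-/- LSC the low group. The smallest adjusted limma p of this list was 0.817. For LSC minus HSC, 15 of the 23 were below 0, with a median of -0.76, against 0.01 over all genes. Of 8 genes listed by name as CDK inhibitors, 7 were measured, without Cdkn1a, and 0 of these had p under 0.05 in any comparison. Cdkn1b, the gene of p27, had the smallest p, with a LSC minus HSC of 1.83 ± 1.08 and an Alox5-/- LSC minus LSC of -1.69 ± 1.08.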

How the data were processed

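RNA of 6 sorted bone marrow samples was measured on whole-transcript arrays, per the labels. The deposited table holds a score per probe set and array, and the submitters' processing notes name Affymetrix Expression Console 1.1 and RMA, with no unit for the score. Of 35557 probe sets, 34499 had values. Each array was centred on its median over these probe sets. Probe sets with several symbols (1621) were left out and the probe set with the highest mean was kept per symbol, giving 19934 genes. Groups were compared with limma 3.58.1 in R 4.3.3 (lmFit and eBayes with a mean-variance trend, all 6 arrays, 3 residual degrees of freedom, two-sided), with Benjamini-Hochberg adjustment over all genes and a threshold of 0.05. The number of arrays limits the precision.

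The members and gene lists were chosen with earlier results of these data known. Values on every array are given for members with an unadjusted p under 0.05, for the largest differences of each set, and for the MCM genes, Pcna, Mki67 and Top2a; Mki67 counts among the replication genes. Ccnb1 and Ly6a were not analysed here. Other scalings, probe set choices, filters and fits, and leaving out each array, were tried.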

Additional observations from a re-analysis of the deposited data

How the results depend on the processing

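Limma called 0 genes at an adjusted p under 0.05 under every alternative run, and 0 to 0 with an array left out, while the count at an unadjusted p under 0.05 was 1024, 795 and 1178 in the 3 comparisons. Comparisons are given in the order LSC minus HSC, Alox5-/- LSC minus LSC, and Alox5-/- LSC minus HSC. With the lowest 25% of genes by mean left out, 35 members and 14950 genes remained, without Mcm2, Prim1, Rfc3, Aurka and Prc1. Of these members 2, 3 and 3 had p under 0.05, where 764, 600 and 872 of the 14950 genes did. The replication median of the first comparison was then -0.10. With the number in the label descriptions as a covariate, 1 and 3 members had p under 0.05 in the second and the third. Over all 19934 genes 542 and 817 did, and the replication median of the second was 0.24. With only the arrays of both groups in the fit the third had 4 members, and 1057 of 19934 genes. On the deposited scores the medians of the third were -1.01 for replication and -1.39 for mitosis. With an array left out, the replication median ranged from -1.27 to -0.15, 0.15 to 1.48 and -0.83 to 0.21. The mitosis median then ranged from -1.12 to -0.36, -0.24 to 1.35 and -0.62 to 0.12. Where an array left out leaves 1 sample in a group, that sample is assumed to vary like the other groups. Tk1 reversed, with Alox5-/- LSC minus HSC at -2.55 on its probe set with the lowest mean. Apart from the smaller number of genes or arrays, the cause was not tested.

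The 18 member differences with p under 0.05 had 260 values under alternatives, of which 187 kept p under 0.05, 72 kept the direction only and 1 reversed. The sign of a member's difference depended on the scaling for 4, 8 and 9 of 57 members. The replicate gaps of same-numbered arrays correlated across genes at 0, -0.063 and -0.06, so no shared deviation was seen. The differences of 2 probe sets of a gene correlated at only 0.0796 to 0.115. Such correlations therefore cannot settle whether the numbers pair the samples. With the replicate block 6, 4 and 5 members had p under 0.05, and 976, 787 and 1136 genes. Scanner files were not used here, so no other background correction was tried.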
